A study of Mus musculus with 18 samples.

Results

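The 8 genes described here act in antigen receptor signalling and were linked to T cell anergy. They were chosen by their mouse gene symbols with earlier results of these data known, out of 45706 genes listed for each library. They are the ubiquitin ligases *Cblb*, *Cbl*, *Itch*, *Nedd4* and *Rnf128*, the ligase adaptor *Ndfip1*, and the diacylglycerol kinases *Dgka* and *Dgkz*. RNA was sequenced from CD8+ T cells of OT-I mice, whose T cell receptor recognises a peptide of ovalbumin (OVA), after single or repeat peptide stimulation in culture. All 4 groups were listed as wild type, but in 13 libraries, all those of experiments B to E, a genotype entry carries the name of a Btk knockout. Whether those cells carried one cannot be told from the sources used here, and the entry served only to name experiments. All cells were cultured with IL-7 and IL-15. In repeat DMSO cells (n = 4 libraries) and repeat ibrutinib cells (n = 5) the peptide was given at 10 ng/ml on each day up to day 5, and the study's methods keep it in the medium until harvest. Single DMSO cells (n = 5) and single ibrutinib cells (n = 4) saw the peptide in the opening 2 days and were then rested. From day 5 to day 8 the cells received DMSO, the solvent, or 1 µM ibrutinib, an inhibitor of the kinase BTK. These are cultured cells that model exhaustion, and no tumour or infection was present. Libraries are named A to F by the genotype entry of the labels, which was read as the name of an experiment. Experiments A to D have a library in every group, E only in repeat ibrutinib and F only in single DMSO.

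A T cell receptor that is engaged without full costimulation can leave a T cell anergic, that is, alive but poorly responsive. CBL-B, ITCH, NEDD4 and GRAIL (the product of *Rnf128*) attach ubiquitin to signalling proteins of this pathway, and NDFIP1 is a membrane adaptor that binds and activates the HECT-type ligases ITCH and NEDD4. Receptor signalling also makes diacylglycerol, the lipid that recruits RasGRP1 and protein kinase C theta, and diacylglycerol kinases alpha and zeta end that signal by turning it into phosphatidic acid. In anergic T cells the genes for CBL-B, GRAIL and diacylglycerol kinase alpha are known targets of NFAT and EGR factors.

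The libraries held 23445922 to 51995372 expected counts each. All 10 markers of CD8 T cells were expressed, among them *Cd8a* at 312 to 677 TPM (reads scaled for transcript length and to a fixed total per library), and *Cd4* did not exceed 0.17 TPM. The summed TPM of 4 CD4 T cell markers was 16.4 to 21.4 in repeat DMSO, 5.38 to 16.6 in repeat ibrutinib, 2.08 to 11.1 in single DMSO and 2.73 to 12.5 in single ibrutinib cells, with *Zbtb7b* up to 20.7 TPM, *Foxp3* up to 8.49 TPM and *Cd40lg* up to 1.53 TPM. The summed TPM of 9 myeloid and dendritic cell markers moved with stimulation, at 225 to 450 in repeat DMSO, 158 to 211 in repeat ibrutinib, 73.8 to 97 in single DMSO and 82.6 to 97.8 in single ibrutinib cells. Nearly all of that sum was *Cst3* (73.5 to 449 TPM), whereas *Csf1r* did not exceed 0.03 TPM and *Lyz2* did not exceed 5.92 TPM. Of 7 B cell markers, 6 stayed under 1 TPM within each group, and their sum, mostly *Cd79b*, was 1.54 to 2.94 TPM in repeat DMSO, 1.25 to 4.18 in repeat ibrutinib, 3.18 to 7.1 in single DMSO and 3.89 to 5.9 in single ibrutinib cells. The sum of 4 NK cell markers, of which *Klrd1* and *Nkg7* are also genes of effector CD8 T cells, was 1260 to 1720 TPM in repeat DMSO, 1530 to 1660 in repeat ibrutinib, 936 to 1180 in single DMSO and 845 to 1020 in single ibrutinib cells, with *Ncr1* at most 1.16 TPM. The part of these shifts in the results below was not tested. Library E stood apart in the balance of long and short genes. The median deviation of genes of at least 3701 bases minus that of genes of at most 1627 bases was -0.70 on the log2 scale in library E and -0.28 to 0.37 in the other 17 libraries. Its group medians were -0.11 in repeat DMSO, -0.12 in repeat ibrutinib, 0.23 in single DMSO and 0.10 in single ibrutinib cells, and its part in the results was not tested. Results without library E are given for *Cblb*, *Ndfip1* and some other genes, but not for every result that involves repeat ibrutinib cells.

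Per unit of transcript length, *Ndfip1*, *Dgka* and *Dgkz* were the most abundant of the 8 genes in every group and *Rnf128* was the least abundant. In repeat DMSO cells the median level was 504.7 TPM for *Ndfip1*, 236.1 TPM for *Dgkz*, 162.7 TPM for *Dgka* and 78.99 TPM for *Cblb*. *Cbl* (26.64 TPM), *Itch* (25.62 TPM) and *Nedd4* (22.77 TPM) followed with overlapping ranges, and *Rnf128* had a median of 0.61 TPM. *Dgkz* and *Dgka* overlapped in repeat DMSO cells, while *Ndfip1* lay above *Dgkz* and *Dgka* above *Cblb* in all 4 libraries. The order changed in single DMSO cells, where *Dgka* led with a median of 300.2 TPM, overlapping *Ndfip1* at 231.3 TPM. There *Dgkz* had a median of 183.4 TPM, and *Cblb* (37.83 TPM) was within the range of *Cbl* (28.48 TPM). In bulk RNA, fewer cells that express a gene and less RNA per cell cannot be told apart.

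**Figure D1:**
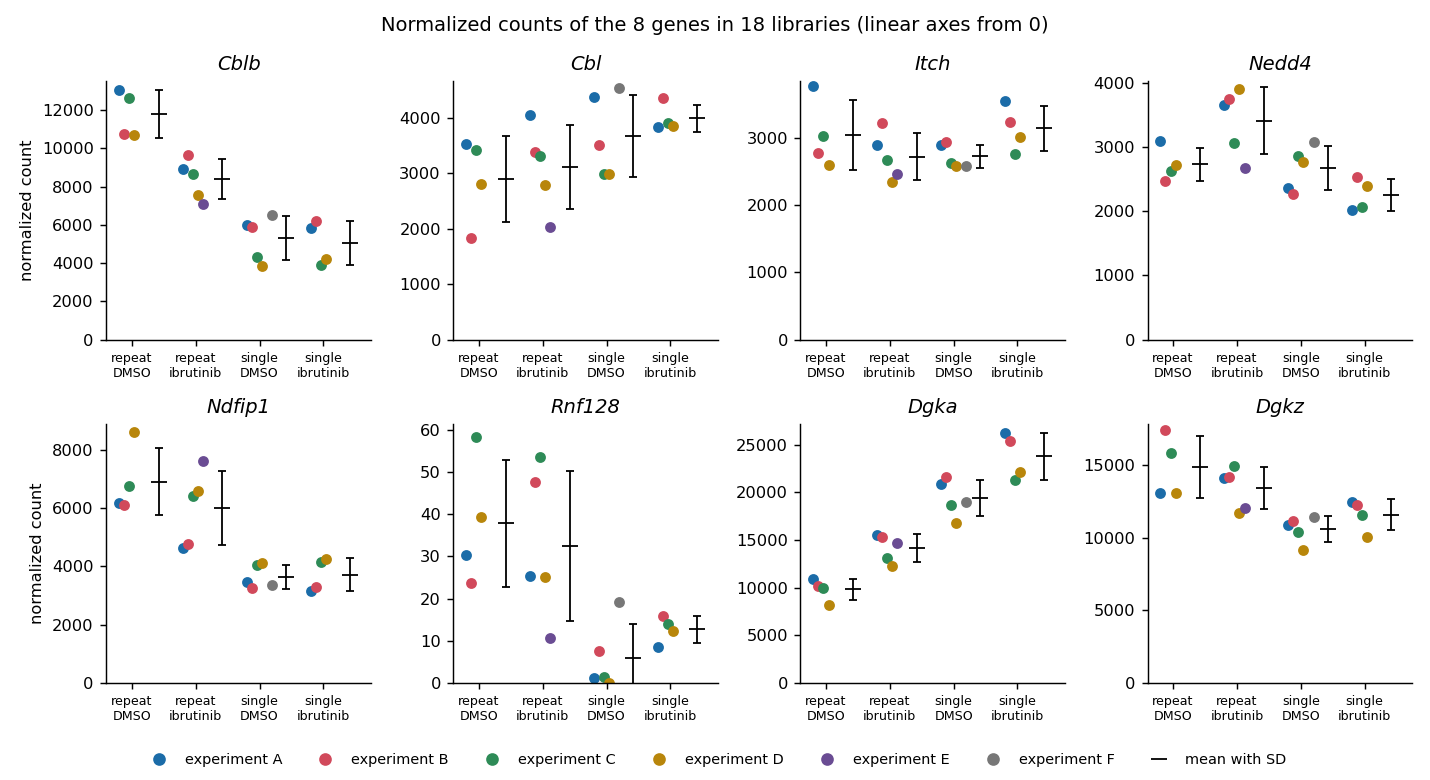
Normalized counts (reads per gene scaled to the mean effective library size, linear axes from 0) of the 8 genes in the 18 libraries, by group and coloured by experiment, with the mean and SD of each group. *Cblb*, *Ndfip1*, *Dgkz* and the scarce *Rnf128* are higher and *Dgka* lower in all repeat DMSO libraries than in all single DMSO libraries. In that comparison 47% of all tested genes were called. All 5 repeat ibrutinib libraries are above all 4 repeat DMSO libraries for *Dgka* and below them for *Cblb*. For ibrutinib in repeat cells 5.92% of all tested genes were called.

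More of the 8 genes were called between the stimulations than between ibrutinib and DMSO. A gene was called changed when its Benjamini-Hochberg adjusted p in edgeR's quasi-likelihood test was under 0.05 over all 12255 tested genes, its mean normalized count was at least 50 and its absolute log2 fold change exceeded 0.2. All 8 genes were tested, but *Rnf128* has a mean count below that minimum and could not be called. Between repeat and single DMSO cells, 3 of the 8 genes rose and 1 fell, where 47% of all tested genes were called (22.8% higher, 24.2% lower). Between repeat and single ibrutinib cells 3 rose and 1 fell, where 38.4% of tested genes were called (18.7% higher, 19.6% lower), so neither share stands far from that of all genes. How many of all genes separate without overlap was not counted, so a lack of overlap below describes each gene only. Ibrutinib in repeat peptide stimulated cells raised 1 of the 8 genes, *Dgka*, where 5.92% of tested genes were called (4.01% higher, 1.92% lower). In single peptide stimulated cells ibrutinib changed 0 of the 8 by this test, with 1 (*Dgka*) at an unadjusted p under 0.05 and 0 called by the DESeq2 Wald test. The share of all tested genes called there was 3.04% (0.351% higher, 2.69% lower). The difference between the ibrutinib effects in repeat and single cells was called for 0 of the 8 by edgeR, with 2 (*Itch* and *Nedd4*) at an unadjusted p under 0.05 and 1 (*Nedd4*) called by DESeq2, against 1.26% of all tested genes (1.04% higher, 0.212% lower).

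Libraries of an experiment resembled each other, and with the experiment as a replicate block the count of called genes rose from 1 to 4 for ibrutinib in repeat cells (*Dgka* and *Nedd4* higher, *Cblb* and *Ndfip1* lower). The block raised it from 0 to 1 in single cells (*Dgka*) and from 0 to 1 for the difference between the ibrutinib effects (*Nedd4*). Over all tested genes the block fit called 13.8%, 9.09% and 5.54% in these comparisons. The DESeq2 Wald test called 2 of the 8 for ibrutinib in repeat cells (*Dgka* and *Cblb*), with 9.4%, 5.03% and 2.86% of all tested genes called in the same order of comparisons. Libraries E and F do not inform a block fit. The comparisons share groups, so the values for each gene are given per comparison and are not independent of each other. P-values measure the spread between cultures, which the labels do not tie to separate mice.

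**Figure D2:**
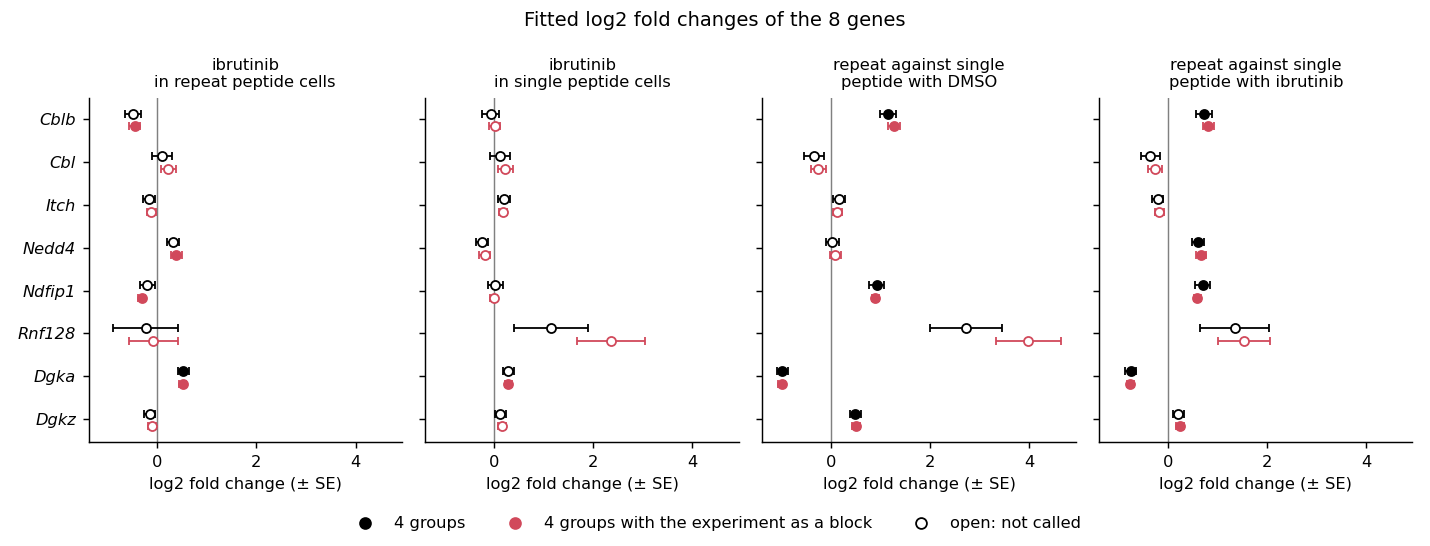
Fitted log2 fold change with its SE for the 8 genes in 4 comparisons, from the fit of the 4 groups (black) and with the experiment as a block (red). Filled points were called and open points were not. *Cblb*, *Ndfip1* and *Dgka* are called in both comparisons of repeat against single cells, and *Dgka* is the gene called with and without the block for ibrutinib in repeat cells.

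*Cblb*, which encodes the RING-type ligase that restrains CD28 and T cell receptor signalling, rose with repeat stimulation. Its normalized counts in repeat DMSO cells were 13056 (A), 10753 (B), 12645 (C) and 10710 (D). In single DMSO cells they were 5963 (A), 5873 (B), 4331 (C), 3825 (D) and 6517 (F). The groups did not overlap, and every repeat library exceeded every single library. The log2 fold change was 1.15 ± 0.162 (SE; adjusted p = 1.24e-05, edgeR), or 2.22-fold, and *Cblb* was higher in 4 of 4 experiments. With ibrutinib the repeat cells held 8934 (A), 9657 (B), 8666 (C), 7565 (D) and 7109 (E) normalized counts. In normalized counts all 5 were below all 4 repeat DMSO libraries. In TPM the groups overlapped, at 33.29 to 73.51 with ibrutinib and 67.86 to 99.14 with DMSO. Experiment B was higher with ibrutinib in TPM (73.51 against 67.86). The decrease was -0.49 ± 0.162 on the log2 scale with an adjusted p of 0.0772 (edgeR), which missed the threshold. With the replicate block it was -0.45 ± 0.111 (adjusted p = 0.0134, edgeR), and without library E it was -0.44 (adjusted p = 0.161, edgeR). In normalized counts *Cblb* was lower in 4 of 4 experiments. In single cells the ibrutinib libraries, at 3913 to 6208, overlapped the DMSO libraries, with a log2 fold change of -0.07 ± 0.163 (adjusted p = 0.92, edgeR). *Cblb* remained higher in repeat than in single cells under ibrutinib, by 0.73 ± 0.165 on the log2 scale (adjusted p = 0.00158, edgeR).

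*Cbl* encodes the closest relative of CBL-B, and it did not follow *Cblb*. Its normalized counts were 1840 to 3519 in repeat DMSO cells and 2983 to 4529 in single DMSO cells, which overlap. The log2 fold change was -0.34 ± 0.194 (adjusted p = 0.145, edgeR), with *Cbl* higher in 1 of 4 experiments. Ibrutinib gave 0.10 ± 0.193 in repeat cells (adjusted p = 0.803, edgeR) and 0.12 ± 0.193 in single cells (adjusted p = 0.877, edgeR). Within a library, where the ratio does not depend on library scaling, the TPM ratio of *Cblb* to *Cbl* was 2.94 (A), 4.623 (B), 2.922 (C) and 3.018 (D) in repeat DMSO cells. It was 1.741 (A), 2.262 (B), 2.068 (C), 2.156 (D) and 2.765 (E) with ibrutinib. The ratio in single DMSO cells was 1.017 to 1.328 and in single ibrutinib cells 0.7911 to 1.201. Repeat DMSO thus lay above all other libraries. The ratio was 2.91-fold higher in repeat than in single DMSO cells (exact two-sided permutation test, p = 0.00794, adjusted p = 0.0159 over the 12 ratio comparisons). Ibrutinib lowered it 1.52-fold in repeat cells (exact permutation p = 0.0159, adjusted p = 0.0238). The ratio was lower with ibrutinib in 4 of 4 experiments, which that test does not use. In single cells the ratio was 1.16-fold lower with ibrutinib (exact permutation p = 0.214, adjusted p = 0.234). The smallest p that 4 against 5 libraries allow is 0.00794.

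Promoter windows of 250 bases before to 50 bases after a RefSeq start site were at hand for 6 of the 8 genes (11 windows). They are shown for the CBL pair, whose levels parted, and later for *Dgka*, whose level moved most clearly with ibrutinib. Each is written 5′ to 3′ on the strand of the gene (GRCm38.p6), with motif letters in capitals. *Cblb* lies on chr16:52031225-52208048 on the plus strand and its window is chr16:52031299-52031598. *Cbl* lies on chr9:44142976-44234049 on the minus strand and its window is chr9:44233997-44234296. The motifs searched on both strands were EGR (GCGNGGGCG), AP-1 (TGANTCA), FOXO (GTAAACA), NFAT (TGGAAA) and CRE (TGACGTCA). They occur in 5.55%, 7.81%, 3.65%, 21.4% and 1.79% of all 32851 RefSeq windows.
Cblb: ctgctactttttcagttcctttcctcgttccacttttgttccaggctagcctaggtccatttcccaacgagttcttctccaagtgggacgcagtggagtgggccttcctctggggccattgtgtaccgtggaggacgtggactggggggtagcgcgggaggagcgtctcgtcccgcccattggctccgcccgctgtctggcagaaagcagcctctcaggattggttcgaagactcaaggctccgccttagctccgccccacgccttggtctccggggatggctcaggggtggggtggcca
Cbl: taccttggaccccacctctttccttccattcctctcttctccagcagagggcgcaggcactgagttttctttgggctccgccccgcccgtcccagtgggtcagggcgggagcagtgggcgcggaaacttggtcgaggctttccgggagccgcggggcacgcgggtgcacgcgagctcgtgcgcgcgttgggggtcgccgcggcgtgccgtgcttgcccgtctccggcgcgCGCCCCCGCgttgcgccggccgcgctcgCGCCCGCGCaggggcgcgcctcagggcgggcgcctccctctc
The *Cblb* window held none of the 5 motifs and was 61.3% GC. The *Cbl* window was 74% GC and held 2 matches to the EGR letters, starting 20 bases before and at base 9 from the start site. A match describes letters in this window and no binding was measured.

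*Itch* and *Nedd4* encode related HECT-type ligases, and in DMSO neither differed detectably between repeat and single cells. *Itch* had 2597 to 3780 normalized counts in repeat DMSO and 2582 to 2942 in single DMSO cells, a log2 fold change of 0.16 ± 0.115 (adjusted p = 0.256, edgeR). *Nedd4* had 2476 to 3090 in repeat DMSO and 2277 to 3083 in single DMSO cells, at 0.03 ± 0.122 (adjusted p = 0.836, edgeR). Under ibrutinib *Nedd4* parted between the stimulations. Its normalized counts were 3651 (A), 3757 (B), 3061 (C), 3913 (D) and 2674 (E) in repeat ibrutinib cells. In single ibrutinib cells they were 2022 (A), 2535 (B), 2074 (C) and 2388 (D), and the groups did not overlap. In TPM they overlapped, at 18.75 (library E) to 38.1 in repeat and 13.28 to 21.4 in single ibrutinib cells. *Nedd4* was 1.51-fold higher in repeat than in single ibrutinib cells, at 0.60 ± 0.123 on the log2 scale (adjusted p = 0.000775, edgeR), in 4 of 4 experiments. That call held in all 9 fits that left out a library. Against its own DMSO control *Nedd4* moved by 0.32 ± 0.122 in repeat cells (adjusted p = 0.126, edgeR) and by -0.24 ± 0.122 in single cells (adjusted p = 0.405, edgeR). Without a library the adjusted p in repeat cells ranged from 0.0535 to 0.274 (edgeR). With the replicate block the value in repeat cells was 0.39 ± 0.104 (adjusted p = 0.0182, edgeR), with normalized counts higher in 4 of 4 experiments. In TPM repeat cells of experiment A were lower with ibrutinib (32.71 against 37.47), while those of B, C and D were higher. The test of the difference between the ibrutinib effects gave 0.56 ± 0.173 (adjusted p = 0.139, edgeR), and 0.58 ± 0.147 with the block (adjusted p = 0.0279, edgeR). *Itch* moved by -0.16 ± 0.115 and 0.20 ± 0.115 with ibrutinib in repeat and single cells, with adjusted p of 0.443 and 0.48 (edgeR).

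The TPM ratio of *Itch* to *Nedd4* showed the same pattern within libraries. It was 1.008 (A), 1.119 (B), 1.145 (C) and 1.083 (D) in repeat DMSO cells and 0.8557 (A), 0.8402 (B), 0.9257 (C), 0.6445 (D) and 0.8069 (E) with ibrutinib. In TPM *Itch* thus exceeded *Nedd4* in all 4 repeat DMSO libraries and in 0 of the 5 repeat ibrutinib libraries. In normalized counts repeat DMSO library D had less *Itch* (2597) than *Nedd4* (2722). TPM also depends on the estimated *Nedd4* transcript length, which was 4091 to 5428 bases in repeat DMSO cells. Ibrutinib lowered the ratio 1.34-fold in repeat cells (exact permutation p = 0.0159, adjusted p = 0.0238). In single cells the ratio was 0.8268 to 1.351 with DMSO and 1.3 to 1.677 with ibrutinib, a 1.34-fold higher mean that overlapped (exact permutation p = 0.0714, adjusted p = 0.0857). Between repeat and single ibrutinib cells the ratio differed 1.73-fold (exact permutation p = 0.00794, adjusted p = 0.0159).

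*Ndfip1*, on chromosome 18, encodes the adaptor of ITCH and NEDD4 and rose with repeat stimulation. Its normalized counts were 6200 (A), 6104 (B), 6767 (C) and 8620 (D) in repeat DMSO cells, against 3452 (A), 3270 (B), 4064 (C), 4126 (D) and 3347 (F) in single DMSO cells. The groups did not overlap and the log2 fold change was 0.92 ± 0.15 (adjusted p = 5.44e-05, edgeR), or 1.9-fold, in 4 of 4 experiments. With ibrutinib repeat cells had 4623 (A), 4790 (B), 6421 (C), 6609 (D) and 7630 (E), which overlap repeat DMSO cells. The ibrutinib value was -0.20 ± 0.15 (adjusted p = 0.458, edgeR). Within experiments *Ndfip1* was lower with ibrutinib in 4 of 4, and the replicate block gave -0.31 ± 0.0717 (adjusted p = 0.0085, edgeR). The repeat ibrutinib library with the highest count, E, is the library that stood apart in its balance of long and short genes, and the annotated *Ndfip1* transcript of the files is short, at 930 bases. In TPM library E was instead the lowest of its group, at 362.3. The part of the length balance in these values was not tested. The group level was 399.9 ± 37.26 TPM (SD) in repeat ibrutinib and 503 ± 69.91 TPM in repeat DMSO cells, with overlapping libraries. Without library E the log2 fold change was -0.30 (adjusted p = 0.276, edgeR). In single cells the value was 0.02 ± 0.151 (adjusted p = 0.975, edgeR).

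*Rnf128*, on chrX:139563316-139673145, encodes GRAIL, a transmembrane ligase, and was close to the limit of detection. Its expected counts were 26 (A), 24 (B), 78 (C) and 37 (D) in repeat DMSO cells and 21 (A), 42 (B), 48 (C), 45 (D) and 9 (E) in repeat ibrutinib cells. In single DMSO cells they were 1 (A), 7 (B), 1 (C), 0 (D) and 15 (F), and in single ibrutinib cells 9 (A), 17 (B), 15 (C) and 12 (D). All repeat DMSO libraries exceeded all single DMSO libraries. The log2 fold change was 2.73 ± 0.727 with an adjusted p of 0.00406 (edgeR), but the gene did not reach the mean count that a call required, and a fold against so few counts is imprecise. Ibrutinib in repeat cells gave -0.23 ± 0.651 (adjusted p = 0.88, edgeR), and in single cells 1.15 ± 0.749 (adjusted p = 0.568, edgeR).

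*Dgka*, on chr10:128720134-128744855 on the minus strand, encodes diacylglycerol kinase alpha and moved in the opposite direction to *Cblb* and *Ndfip1*. Its normalized counts were 10910 (A), 10140 (B), 9957 (C) and 8196 (D) in repeat DMSO cells. Single DMSO cells had 20851 (A), 21609 (B), 18673 (C), 16786 (D) and 19002 (F). Every single library exceeded every repeat library, and the log2 fold change was -0.98 ± 0.115 (adjusted p = 1.56e-06, edgeR), 1.98-fold lower in repeat cells and lower in 4 of 4 experiments. Ibrutinib brought the repeat cells to 15540 (A), 15333 (B), 13129 (C), 12229 (D) and 14675 (E), above all repeat DMSO libraries and below all single DMSO libraries. In TPM repeat ibrutinib cells, at 166.6 to 284.7, overlapped both repeat DMSO (131.9 to 201.4) and single DMSO cells (207.5 to 354.4). Within each of experiments A to D the TPM of repeat cells was higher with ibrutinib. The increase was 0.53 ± 0.114 on the log2 scale (adjusted p = 0.00791, edgeR), or 1.45-fold, and it passed the threshold in all 9 fits that left out a library (adjusted p from 0.00543 to 0.0437, edgeR). In experiments A to D it was 0.51, 0.60, 0.40 and 0.58. Single ibrutinib cells had 26258 (A), 25446 (B), 21281 (C) and 22122 (D), which overlap single DMSO cells. The ibrutinib value in single cells was 0.29 ± 0.112 (adjusted p = 0.213, edgeR), and 0.29 ± 0.0723 with the replicate block (adjusted p = 0.0174, edgeR), higher in 4 of 4 experiments. The test of the difference between the ibrutinib effects gave 0.24 ± 0.159 (adjusted p = 0.655, edgeR). Under ibrutinib *Dgka* was still lower in repeat than in single cells, by -0.75 ± 0.112 (adjusted p = 3.69e-05, edgeR).

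RefSeq gives *Dgka* 4 promoter windows, of which 3 held the NFAT letters. The pair nearest the annotated 5′ end of the gene that held them are chr10:128744027-128744326, with a match starting 96 bases before the start site, and chr10:128745035-128745334, with matches starting 106 bases before and at base 16.
Dgka, window 3: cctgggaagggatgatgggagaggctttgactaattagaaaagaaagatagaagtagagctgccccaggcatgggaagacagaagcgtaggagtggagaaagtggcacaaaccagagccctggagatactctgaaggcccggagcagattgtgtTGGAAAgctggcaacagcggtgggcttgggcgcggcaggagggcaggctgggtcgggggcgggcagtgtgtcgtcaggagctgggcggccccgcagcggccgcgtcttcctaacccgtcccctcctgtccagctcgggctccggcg
Dgka, window 4: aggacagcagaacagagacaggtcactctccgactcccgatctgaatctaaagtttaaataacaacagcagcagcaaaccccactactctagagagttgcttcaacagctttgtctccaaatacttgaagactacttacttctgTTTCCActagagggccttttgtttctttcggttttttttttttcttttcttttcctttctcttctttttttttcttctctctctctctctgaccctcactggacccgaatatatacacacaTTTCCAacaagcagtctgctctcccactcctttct
Since 21.4% of all windows hold these letters, the matches describe the sequence only. Both windows of *Dgkz* and the *Rnf128* window held none of the 5 motifs, and the windows of *Nedd4* held 1 EGR match in the upstream window and 1 AP-1 and 1 NFAT match in the other.

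*Dgkz*, on chr2:91932824-91975864, encodes diacylglycerol kinase zeta and moved against *Dgka*. Its normalized counts were 13116 (A), 17414 (B), 15816 (C) and 13088 (D) in repeat DMSO cells. In single DMSO cells they were 10872 (A), 11142 (B), 10406 (C), 9161 (D) and 11433 (F). The groups did not overlap and *Dgkz* rose 1.4-fold, by 0.49 ± 0.111 on the log2 scale (adjusted p = 0.00126, edgeR). In TPM they overlapped, at 183.4 to 270.8 in repeat DMSO and 111.1 to 189.1 in single DMSO cells. Ibrutinib gave -0.15 ± 0.112 in repeat cells (adjusted p = 0.47, edgeR) and 0.13 ± 0.112 in single cells (adjusted p = 0.712, edgeR), with overlapping libraries. Under ibrutinib the difference between repeat and single cells was 0.21 ± 0.112 (adjusted p = 0.139, edgeR), and 0.24 ± 0.079 with the replicate block (adjusted p = 0.0152, edgeR).

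*Dgka* fell and *Dgkz* rose with repeat stimulation in DMSO, and their ratio differed between repeat and single cells with no overlap. The TPM ratio of *Dgka* to *Dgkz* was 0.8929 (A), 0.5786 (B), 0.6838 (C) and 0.7192 (D) in repeat DMSO cells. With ibrutinib it was 1.175 (A), 1.042 (B), 0.9595 (C), 1.104 (D) and 1.209 (E). In single cells it was 1.588 to 1.932 with DMSO and 1.914 to 2.178 with ibrutinib. *Dgkz* thus led in all repeat DMSO libraries and *Dgka* in all single libraries, and in repeat ibrutinib cells *Dgka* led in every library except C. Ibrutinib raised the ratio 1.54-fold in repeat cells (exact permutation p = 0.00794, adjusted p = 0.0159) and 1.14-fold in single cells (exact permutation p = 0.0238, adjusted p = 0.0317). It was higher with ibrutinib in 4 of 4 experiments each, which that test does not use. In single cells the mean log2 difference was 0.19 between the groups and 0.14 within experiments A to D. Single DMSO library F, without an ibrutinib partner, had the lowest ratio of its group (1.588). Repeat stimulation lowered the ratio 2.53-fold with DMSO and 1.87-fold with ibrutinib (exact permutation p = 0.00794 and adjusted p = 0.0159 for each). Of the 12 ratio comparisons, 9 had an adjusted p under 0.05. These comparisons share groups, and the genes were chosen with earlier results known. No other gene pairs were compared, while 47% and 38.4% of all tested genes were called between the stimulations with DMSO and with ibrutinib.

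**Figure D3:**
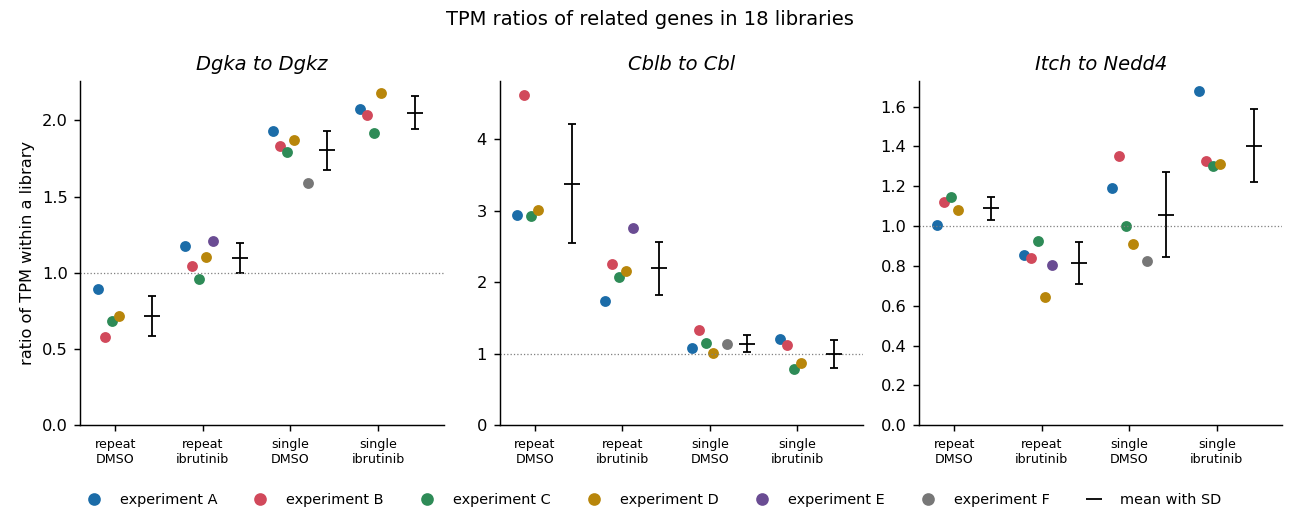
TPM ratios within a library (linear axes from 0, dotted line at equal levels) for *Dgka* to *Dgkz*, *Cblb* to *Cbl* and *Itch* to *Nedd4* in the 18 libraries, coloured by experiment, with the mean and SD of each group. In repeat ibrutinib cells the *Dgka* to *Dgkz* ratio (0.9595 to 1.209) lies between repeat DMSO (0.5786 to 0.8929) and single DMSO cells (1.588 to 1.932), with no overlap.

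The mouse genome has 10 diacylglycerol kinase genes, and *Dgka*, *Dgkz* and *Dgkd* supplied most of their transcripts. Summed over the 10 genes the level was 504.4 ± 63 TPM (SD, n = 4) in repeat DMSO, 516 ± 131.2 (n = 5) in repeat ibrutinib, 528.4 ± 111.8 (n = 5) in single DMSO and 572.7 ± 150.6 TPM (n = 4) in single ibrutinib cells, so the group means lay closer together than the libraries within most groups. The share of *Dgka* was 32.56% ± 2.732 in repeat DMSO, 43.47% ± 2.235 in repeat ibrutinib, 55.32% ± 2.364 in single DMSO and 59.2% ± 1.572 in single ibrutinib cells. The share of *Dgkz* went the other way, at 45.91% ± 4.535, 39.71% ± 1.672, 30.75% ± 1.047 and 28.89% ± 0.897 in the same order. That of *Dgkd*, the delta isozyme, was 16.93% ± 1.391, 12.72% ± 0.8044, 10.52% ± 0.8994 and 8.628% ± 1.336. *Dgkh*, the eta isozyme, rose from 1.782 ± 0.6139 TPM in single DMSO to 10.68 ± 2.446 TPM in repeat DMSO cells, a log2 fold change of 2.39 ± 0.229 (adjusted p = 1.43e-07, edgeR). *Dgkd* rose by 0.45 ± 0.122 (adjusted p = 0.00462, edgeR) and *Dgkq*, the theta isozyme, fell by 0.85 on the log2 scale (SE 0.25, adjusted p = 0.00807, edgeR). Of the 8 other kinases 5 were tested, and with ibrutinib in repeat cells 0 of them were called in either direction by edgeR, with 3 at an unadjusted p under 0.05, 1 called by DESeq2 and 2 with the replicate block. Of all tested genes edgeR called 5.92%, DESeq2 9.4% and the block fit 13.8% there.

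**Figure D4:**
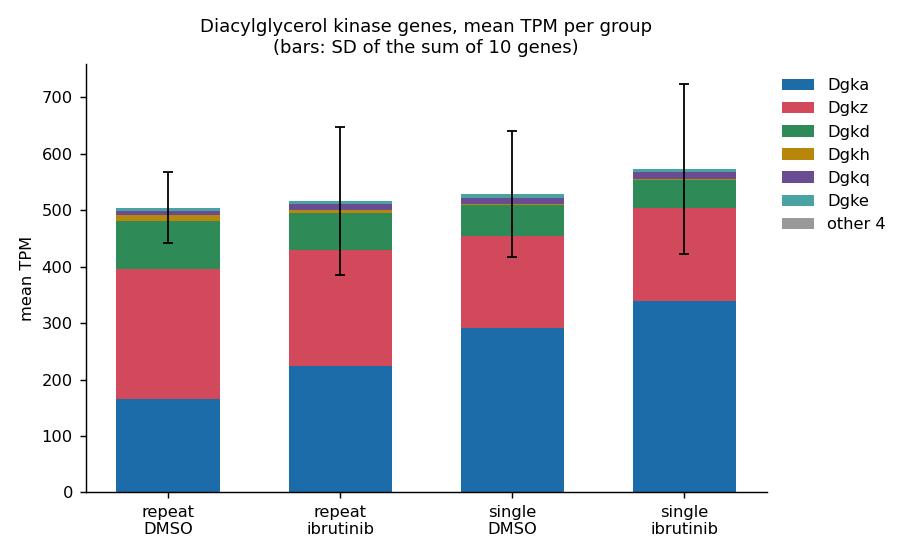
Mean TPM of the diacylglycerol kinase genes in each group, stacked from 0, with the SD of their sum as error bars (n = 4 or 5 libraries). The summed level is 504.4 to 572.7 TPM in all groups, while *Dgka* goes from 164.7 TPM in repeat DMSO to 291.6 TPM in single DMSO cells and *Dgkz* from 231.6 to 162.4 TPM.

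In repeat cells the ibrutinib differences of *Dgka* in log2 normalized counts were the most even across experiments, ranging from 0.40 to 0.60. In repeat cells *Cblb* moved by -0.55, -0.16, -0.55 and -0.50 in experiments A to D, and *Ndfip1* by -0.42, -0.35, -0.08 and -0.38. *Nedd4* moved by 0.24, 0.60, 0.22 and 0.52 in repeat cells, and by -0.22, 0.15, -0.46 and -0.21 in single cells. Leaving *Rnf128* aside, *Cbl* had the widest spread in repeat cells, 0.21, 0.88, -0.05 and -0.02, where experiment B stood apart through a low repeat DMSO library (1840 normalized counts).

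**Figure D5:**
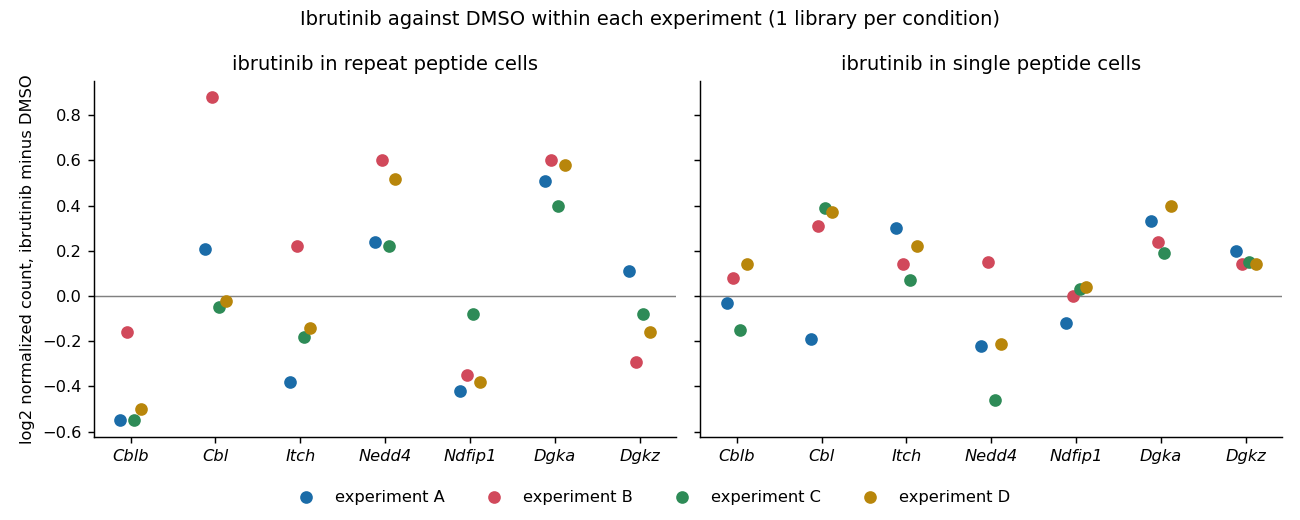
Ibrutinib minus DMSO in log2 normalized counts within each of experiments A to D (1 library per condition), for 7 genes in repeat (left) and single (right) peptide stimulated cells; *Rnf128* is left out for its low counts. *Dgka* is above 0 in all 4 experiments of both panels, and *Cblb* and *Ndfip1* are below 0 in all 4 experiments of the left panel.

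The deposited transcript length of a gene is an average weighted by the estimated use of its transcripts, and it can differ between libraries only for *Itch*, *Nedd4*, *Rnf128* and *Dgkz*, for which the annotation lists 7, 10, 3 and 13 transcripts. *Dgkz* averaged 2991 ± 156.7 bases (SD) in repeat DMSO and 2770 ± 82.82 bases in single DMSO cells. The difference of 220.7 bases had an exact permutation p of 0.0476, which did not pass after adjustment over the 16 length comparisons (adjusted p = 0.762). The other 15 had unadjusted p above it.

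Other genes of the same pathways, 99 in 8 lists of which 86 were tested, were called more often between the stimulations than with ibrutinib. Between repeat and single DMSO cells 19 rose, 40 fell and 27 did not pass, where 22.8% of all tested genes were called higher and 24.2% lower, with a median log2 fold change of -0.25 against -0.002 over all tested genes. With ibrutinib in repeat cells 10 rose, 2 fell and 74 did not pass (median 0.05, against 0.004 over all genes, of which 4.01% were called higher and 1.92% lower). With ibrutinib in single cells 1 rose and 1 fell, where 3.04% of all tested genes were called. The difference between the ibrutinib effects was called for 2 genes, both positive, and for 1.26% of all tested genes. With the replicate block the counts were 23 higher and 9 lower for ibrutinib in repeat cells, 4 higher and 2 lower in single cells, and 7 higher and 1 lower for the difference of ibrutinib effects, out of 86 genes each. The same block fits called 13.8%, 9.09% and 5.54% of all tested genes, and no test compared the lists with other genes.

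Among the NEDD4 family ligases and adaptors, 1 of 6 tested genes rose and 3 fell in repeat DMSO against single DMSO cells. Over all tested genes 22.8% were called higher and 24.2% lower in that comparison, which also applies to the lists that follow here. *Nedd4l* fell by 2.10 on the log2 scale (SE 0.177, adjusted p = 2.94e-08, edgeR), *Smurf1* fell by 1.44 (SE 0.168, adjusted p = 1.56e-06, edgeR) and *Smurf2* fell by 0.61 (SE 0.169, adjusted p = 0.00549, edgeR). *Nedd4l*, at 1.038 ± 0.09069 TPM in repeat DMSO cells and thus far below *Nedd4*, rose with ibrutinib to 1.672 ± 0.7181 TPM (log2 fold change 0.76 ± 0.171, adjusted p = 0.0113, edgeR). Among CBL and its partners 3 of 10 rose and 6 fell with repeat stimulation. *Ubash3b* (STS-1, a CBL-binding phosphatase) rose by 1.45 ± 0.204 (adjusted p = 1.29e-05, edgeR) and *Sla*, encoding the SLAP adaptor that brings CBL to the T cell receptor, rose by 0.82 ± 0.103 (adjusted p = 3.39e-06, edgeR). *Cd2ap* fell by 0.69 (SE 0.105, adjusted p = 2.56e-05, edgeR). *Sla* was 206.4 ± 25.89 TPM in repeat DMSO and 112.6 ± 22.83 TPM in repeat ibrutinib cells, and was the list's called gene with ibrutinib, at -0.79 ± 0.103 (adjusted p = 0.000174, edgeR). Among GRAIL-type ligases and regulators 0 of 6 rose and 3 fell with repeat stimulation. They were *Rnf167* at -0.87 ± 0.228, *Rnf130* at -0.42 ± 0.121 and *Usp8*, a deubiquitinase, at -0.28 ± 0.0847 on the log2 scale. With ibrutinib in repeat cells 0 of these 6 were called by edgeR, with 1 at an unadjusted p under 0.05 and 1 called by DESeq2. Of all tested genes edgeR called 5.92% and DESeq2 9.4% there.

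Of the other ligases and deubiquitinases of T cells, 1 of 12 rose and 7 fell with repeat stimulation. Over all tested genes 22.8% were called higher there and 24.2% lower. *Dtx1*, encoding the anergy-linked ligase Deltex1, was 21.74 ± 4.511 TPM in single DMSO cells and 0.085 ± 0.02517 TPM in repeat DMSO cells (log2 fold change -8.03 ± 0.364, adjusted p = 2e-11, edgeR). It was 0.526 ± 0.3252 TPM in repeat ibrutinib cells, a rise of 2.07 ± 0.402 (adjusted p = 0.00415, edgeR), and its ibrutinib effects differed by 2.17 ± 0.464 (adjusted p = 0.0233, edgeR), a call lost without repeat DMSO library C (1.94, adjusted p = 0.0871, edgeR). *Socs3* fell by 2.67 on the log2 scale with repeat stimulation (SE 0.276, adjusted p = 3.71e-07, edgeR) and rose by 1.35 ± 0.263 with ibrutinib in repeat cells (adjusted p = 0.0043, edgeR). *Peli1* fell by 0.91 with repeat stimulation (SE 0.205, adjusted p = 0.00113, edgeR).

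Of 15 tested genes listed as sources or readers of diacylglycerol, 2 rose and 9 fell with repeat stimulation. Over all tested genes 22.8% were called higher there and 24.2% lower. A place on the list does not show that a product binds diacylglycerol. *Rasgrp2*, a RasGRP-family exchange factor for Rap1, was 624.4 ± 97.43 TPM in single DMSO and 174.7 ± 54.04 TPM in repeat DMSO cells (log2 fold change -2.15 ± 0.183, adjusted p = 3.48e-08, edgeR). *Plcg1*, encoding the phospholipase that makes diacylglycerol, fell by 0.98 (SE 0.167, adjusted p = 9.11e-05, edgeR). *Chn2*, a diacylglycerol-binding Rac regulator, rose from 0.172 ± 0.1874 to 11.84 ± 5.5 TPM (log2 fold change 6.13 ± 0.58, adjusted p = 1.25e-07, edgeR). Ibrutinib in repeat cells raised 2 of the 15, where 4.01% of all tested genes were called higher. *Rasgrp2* rose to 335.2 ± 83.71 TPM (1.05 ± 0.176, adjusted p = 0.00135, edgeR), and its ibrutinib effects differed by 1.04 ± 0.245 (adjusted p = 0.0419, edgeR), a call that held in 4 of 18 fits without a library. *Prkcq*, encoding protein kinase C theta, rose by 0.28 ± 0.0807 (adjusted p = 0.042, edgeR). That call was lost without repeat DMSO library C (0.29, adjusted p = 0.109) or D (0.25, adjusted p = 0.131) and without repeat ibrutinib library E (0.28, adjusted p = 0.0643) or A (0.25, adjusted p = 0.0895, edgeR).

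Of 18 genes listed as substrates of the ligases, 2 rose and 8 fell with repeat stimulation. Over all tested genes 22.8% were called higher there and 24.2% lower. *Foxp3*, which marks regulatory T cells, was 1.788 ± 2.104 TPM in single DMSO and 0.0375 ± 0.03304 TPM in repeat DMSO cells (log2 fold change -5.66 ± 1.06, adjusted p = 0.000223, edgeR), a level near 0 in repeat cells. *Jun* fell by 2.21 (SE 0.323, adjusted p = 1.84e-05, edgeR) and *Cd247*, encoding the zeta chain of the receptor, fell by 1.12 (SE 0.143, adjusted p = 4.33e-06, edgeR). With ibrutinib in repeat cells *Jun* rose by 1.32 ± 0.312 (adjusted p = 0.0147, edgeR; adjusted p = 0.0552 without repeat DMSO library D). *Cd247* rose by 0.54 ± 0.141 (adjusted p = 0.0257, edgeR), a call lost without repeat DMSO library A (0.50, adjusted p = 0.074), C (0.49, adjusted p = 0.101) or D (0.58, adjusted p = 0.0522) or repeat ibrutinib library E (0.41, adjusted p = 0.0566, edgeR).

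Of 14 genes listed for the anergy programme, 8 rose and 3 fell with repeat stimulation, where 22.8% of all tested genes were called higher and 24.2% lower, and the median log2 fold change was 0.57 against -0.002 over all tested genes. *Izumo1r*, encoding folate receptor 4, rose by 5.12 ± 0.543 (adjusted p = 4.91e-07, edgeR), *Nrp1* rose by 5.10 ± 0.375 (adjusted p = 5.92e-09, edgeR) and the transcription factor gene *Egr3* rose by 3.24 ± 0.269 (adjusted p = 2.5e-08, edgeR). The 3 that fell, named after their values were seen, were *Nt5e* at -1.24 ± 0.23 (adjusted p = 0.000188), *Tob1* at -1.09 ± 0.12 (adjusted p = 7.07e-07) and *Cdkn1b* at -1.07 ± 0.149 (adjusted p = 1.18e-05, edgeR). With ibrutinib in repeat cells 3 rose and 1 fell, where 4.01% of all tested genes were called higher and 1.92% lower. *Bhlhe40* was 138.6 ± 56.96 TPM in repeat DMSO and 44.23 ± 16.25 TPM in repeat ibrutinib cells (log2 fold change -1.55 ± 0.299, adjusted p = 0.00397, edgeR). *Nt5e*, encoding CD73, rose by 0.99 ± 0.228 (adjusted p = 0.0126, edgeR; 0.82 with adjusted p = 0.0522 without repeat DMSO library D). *Cdkn1b*, encoding p27, rose by 0.63 ± 0.148 (adjusted p = 0.0143, edgeR; adjusted p = 0.0655 and 0.0586 without repeat DMSO library C or D). In single cells ibrutinib lowered *Egr3* by -1.56 ± 0.292 (adjusted p = 0.00698, edgeR) and raised *Tob1*, encoding an antiproliferative factor, by 0.50 ± 0.115 (adjusted p = 0.0214, edgeR). The *Tob1* call held in 5 of 9 fits without a library, and was lost without single DMSO library C or D (adjusted p = 0.0502 and 0.0526) or single ibrutinib library A or C (adjusted p = 0.125 and 0.065, edgeR). *Tob1* also rose in repeat cells, by 0.42 ± 0.118 (adjusted p = 0.0399, edgeR), a call that held in only 2 of the 9 fits without a library.

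The genes whose log2 CPM (counts scaled for depth only) followed each of the 8 most closely over the 18 libraries are given as a description, since the groups and library effects are shared. *Cblb* was followed by *Itgav* (Pearson r = 0.979) and *Slc35d1* (0.967), *Ndfip1* by *Mrps6* (0.981) and *Casp4* (0.968), and *Dgka* by *Gm14085* (0.984) and *Gclc* (0.984). *Dgkz* was followed by *Lrp10* (0.931) and *B4galnt1* (0.930), and *Cbl* by *Lnpep* (0.967) and *Ino80d* (0.959). *Itch* was followed by *Pik3ca* (0.872) and *Cnot2* (0.840), *Nedd4* by *Fgl2* (0.812) and *Ypel4* (0.779), and *Rnf128* by *Cldn12* (0.950) and *Rnf24* (0.928). Over the 18 libraries *Dgka* ran opposite to *Ndfip1* (r = -0.90) and to *Cblb* (r = -0.77). After the group means were removed, *Dgka* and *Cblb* ran together (r = 0.69) while *Ndfip1* ran opposite to *Dgka* (r = -0.77) and to *Cblb* (r = -0.75), over the same 18 libraries that differ in their balance of long and short genes.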

How the data were processed

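RNA of CD8+ T cells was sequenced in 18 libraries, grouped from the labels by stimulation and treatment. The authors trimmed reads with Trim Galore, mapped them to GRCm38 with RSEM 1.3.1 and deposited 1 gene table per library. The deposited expected counts estimate reads per gene, the TPM values were scaled by the authors to a fixed total per library, and the deposited transcript and effective lengths are in bases. The 8 genes, the gene lists and the motifs were chosen with earlier results of these data known.

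Symbols came from GENCODE M21, which matched 45143 of 45706 gene identifiers. Expected counts of 27903 protein-coding and lncRNA genes (98.5% of counts) were rounded. In R 4.3.3, edgeR 4.0.16 filtered with filterByExpr (12255 genes left), scaled by TMM and compared groups with glmQLFTest in a single fit of the 4 groups. The SE is the absolute log2 fold change divided by the square root of F. Normalized counts put every library on the mean effective library size. DESeq2 1.42.0 served in alternatives. TPM ratios and lengths were compared with exact two-sided permutation tests (Python 3.11.15, numpy 2.4.6). These tests took every split of the libraries of the compared groups, without regard to experiment. The edgeR script was tested on simulated data.

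For each list of related genes, up to 3 called genes with the largest absolute change were named for ibrutinib in repeat cells and for repeat against single DMSO cells, plus those called for ibrutinib in single cells or for the difference of ibrutinib effects. For each of the 8 genes the 2 genes with the highest correlation over libraries were named.

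The experiment letter comes from the genotype entry of the labels, and reading that entry as an experiment is an inference. In 13 libraries that entry carries a Btk knockout name, although the strain is listed as wild type. The study's methods give no genotype for the sequenced cells and also describe Btk-deficient OT-I mice, so the genotype stays unsettled and the entry was used only as the name of an experiment. *Btk* had at most 27 expected counts in a library, too few to check it. Libraries of an experiment in different groups deviated together (24 pairs, r from 0.16 to 0.494), against r from -0.44 to 0.404 in the other 97 pairs. The experiment was therefore used as a replicate block in an alternative, where libraries E and F do not contribute. Libraries of a group were no copies of each other (chi-square of their counts divided by its degrees of freedom, 28.6 to 225). At 23445922 to 51995372 expected counts per library, each of the other 7 genes had at least 1713 expected counts in every library, and *Rnf128* had 0 to 78. Genes that overlap the 8 had at most 32 expected counts.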

Additional observations from a re-analysis of the deposited data

Results flagged for a closer look

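Of 32 groups of libraries, 4 for each of the 8 genes, 1 held a library far from the others. *Cbl* in single ibrutinib cells was 4356 normalized counts in library B, whereas the other 3 libraries lay at 3841, 3910 and 3857. Chance alone marks about 1 in 20 such groups.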

How the results depend on the processing

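Calling the 8 genes was repeated with DESeq2 size factors, without the filter on low counts, without the mean count minimum, with effective lengths, all gene types, only the compared groups, the DESeq2 Wald test and each library left out in turn. A minimum absolute log2 change of 1 left 0 calls for ibrutinib in repeat cells, 1 (*Cblb*) for repeat against single DMSO cells and 0 for repeat against single ibrutinib cells. The count for ibrutinib in repeat cells was 2 (*Dgka* and *Cblb*) with only the compared groups and with DESeq2, and 4 with the replicate block, and the block gave 1 in single cells. For repeat against single ibrutinib cells the block gave 5 in place of 4, adding *Dgkz*. Without the mean count minimum *Rnf128* was also called for repeat against single DMSO cells (log2 fold change 2.73, adjusted p = 0.00406, edgeR). The difference of ibrutinib effects was called for 1 gene with the block and 1 with DESeq2. The cause was not tested. Other values that changed sign were of genes not called. With the block *Cblb* was 0.01 and *Ndfip1* -0.01 with ibrutinib in single cells, and the *Cbl* difference of ibrutinib effects was 0.00, as it was without the low-count filter. The *Itch* to *Nedd4* log2 ratio, repeat against single DMSO, was -0.02 within experiments in the paired comparison, and ranged from -0.02 to 0.16 without a library. Without a library, ibrutinib in repeat cells ranged from -0.05 to 0.22 for *Cbl* and -0.48 to 0.06 for *Rnf128*, ibrutinib in single cells from -0.19 to 0.02 for *Cblb* and -0.05 to 0.08 for *Ndfip1*, repeat against single DMSO from -0.03 to 0.09 for *Nedd4*, and the difference of ibrutinib effects from -0.16 to 0.1 for *Cbl*. The count of calls was unchanged in every fit that left out a library. *Rnf128* had at most 78 expected counts in a library, which limits what can be said of it.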
